A study of Mus musculus with 4 samples.

Results

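The 10 genes described here encode proteins with which gut epithelium takes up and passes on lipid, bile acids and sugar. They are Apob, Mttp, Apoa1, Apoa4, Fabp1, Fabp2, Rbp2, Slc51a, Slc51b and Sis, and all 10 were found by symbol among the 44788 gene rows of the deposited count table. They were chosen from their values in these same libraries, so the differences between libraries that follow are descriptions with no test. RNA was sequenced from colon tissue of C57BL/6 mice in 4 libraries, 1 for each combination of genotype label (wild type, WT, or Card9-/-) and treatment. The treated mice received the mutagen azoxymethane (AOM, 10 mg/kg) on day 1 and 3 cycles of the irritant dextran sulfate sodium (DSS, 2%), which together give tumours in an inflamed colon, and were taken on day 100. The untreated libraries are labelled day 0, so treatment and time of collection cannot be told apart. Card9 encodes a signalling adaptor of myeloid cells, and neither the deleted part of the gene nor the number of mice per library is given in the sources used here. With 1 library per group, no difference has a replicate check, and every interval covers counting error only.

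Absorptive epithelial cells digest sugars at the brush border, take up fatty acids and retinol, and load lipid onto apolipoprotein B to form chylomicrons. This work is done mainly in the small intestine, where most of these genes are known for their high expression, while export of bile acids across the basolateral membrane is shared by ileum and colon. Colonocytes take up water, salt and short-chain fatty acids, and sucrase-isomaltase in colon is known as a marker of enterocyte-like differentiation.

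Library totals ran from 23022885 to 27706567 counts. Card9 itself was counted in all 4 libraries and was not lower under the knockout label: in untreated tissue it stood at 1.75 CPM (counts scaled to library size) in WT and 3.18 CPM in the library labelled knockout, and with AOM/DSS at 5.32 and 7.73 CPM. These counts go against the label, on which each direction between genotypes below rests, unless they come from outside the deleted part. One library, AOM/DSS with the knockout label, was unlike the rest, with correlations across 18484 genes of 0.868 to 0.890 with the other libraries against 0.954 to 0.963 among those. Epithelial genes were present throughout. The sum of 11 pan-epithelial genes (among them Epcam, Cdh1 and Krt8) was 11250 CPM, 13320 CPM, 13740 CPM and 10360 CPM in an order that all series of 4 values below follow: WT then labelled knockout without treatment, and WT then labelled knockout with AOM/DSS. Within the pan-epithelial sum, genes went apart between the libraries labelled knockout. After AOM/DSS, Epcam was 2.60-fold lower there, Krt18 and Cldn4 were 2.28-fold and 12.7-fold higher, and the rest differed by less than 2-fold. The sum of 14 colonocyte markers was 17930 CPM, 11850 CPM and 15840 CPM in the first 3 libraries and 2168 CPM in the AOM/DSS library labelled knockout. Sums of 8 smooth muscle genes (8853, 9123, 6842 and 1318 CPM) and 8 goblet cell genes (17140, 16040, 14730 and 2028 CPM) were lowest there too. The sum of 8 fat cell genes was lower under the knockout label in both treatments, at 504.5, 42.9, 228 and 19.9 CPM. The untreated libraries were thus not alike in every tissue marker, and the part of this in the results below was not tested.

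The stretches before the transcription start of Rbp2, Sis, Slc51a and Fabp2 are shown because results below turn on these genes and their 150 bases hold no annotated exon of any gene. They come from RefSeq on GRCm38.p6, the files' build, and are printed 5′ to 3′ on the gene's strand, ending at the base before the start.
Rbp2 (chr9:98490387-98490536, plus strand): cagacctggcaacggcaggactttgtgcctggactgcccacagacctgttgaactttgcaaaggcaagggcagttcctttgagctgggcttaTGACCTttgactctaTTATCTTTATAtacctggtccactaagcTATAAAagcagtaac
Sis (chr3:72967864-72968013, minus strand): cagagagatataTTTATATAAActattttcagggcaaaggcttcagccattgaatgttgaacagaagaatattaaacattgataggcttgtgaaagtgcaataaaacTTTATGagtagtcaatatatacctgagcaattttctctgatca
Slc51a (chr16:32487880-32488029, minus strand): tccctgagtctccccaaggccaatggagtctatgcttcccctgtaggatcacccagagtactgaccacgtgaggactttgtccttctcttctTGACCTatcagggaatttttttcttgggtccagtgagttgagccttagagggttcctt
Fabp2 (chr3:122894922-122895071, plus strand): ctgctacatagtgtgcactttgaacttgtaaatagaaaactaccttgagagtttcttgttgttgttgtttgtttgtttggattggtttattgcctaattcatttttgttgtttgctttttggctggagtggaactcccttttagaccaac
Capitals mark matches, on either strand, to 6 short motifs. The motif of HNF4 was searched as CAAAGTCCA, the half-site of HNF1 as GTTAAT, that of the GATA family of factors as AGATAA, that of CDX factors as TTTATG, the half-site of nuclear receptors as AGGTCA and the TATA box as TATAAA. In Rbp2 the GATA family match shares a base with a TATA box match, and in Sis the TATA box matches of both strands overlap. Over the 250 bases before the start, the nuclear receptor half-site was found in 4 of 10 genes (Fabp1, Rbp2, Slc51a and Slc51b) against 14% of 32851 promoters. The TATA box was found in 4 of 10 (Apob, Fabp1, Rbp2 and Sis) against 12.4%. The HNF1 half-site and the CDX motif were each found in Fabp1 and Sis (6.43% and 10.8% of all promoters), the GATA family motif in Rbp2 alone (9.99%), and the HNF4 motif in 0 of 10 (0.384%). Apoa1, Apoa4, Fabp2 and Mttp held none of the 6 in that window. A match is a description of the letters and no evidence of binding.

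Across the libraries the 10 genes did not move as a block. Their summed level was 697 CPM, 393.5 CPM, 1186 CPM and 47.7 CPM. Of the 10 genes, 6 were highest in WT AOM/DSS (Apoa1, Apoa4, Apob, Mttp, Sis and Slc51a), 3 in untreated WT (Fabp1, Fabp2 and Slc51b) and 1 in the untreated library labelled knockout (Rbp2). The AOM/DSS library labelled knockout held the lowest value of 6 of them (Apob, Fabp2, Rbp2, Sis, Slc51a and Slc51b). Of the other 4, Fabp1 and Apoa4 had 0 counts there and in at least 1 more library. Apoa1 and Mttp were lowest in untreated WT. How often each library was highest or lowest over all genes was not counted, so these counts are read no further.

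**Figure D1:**
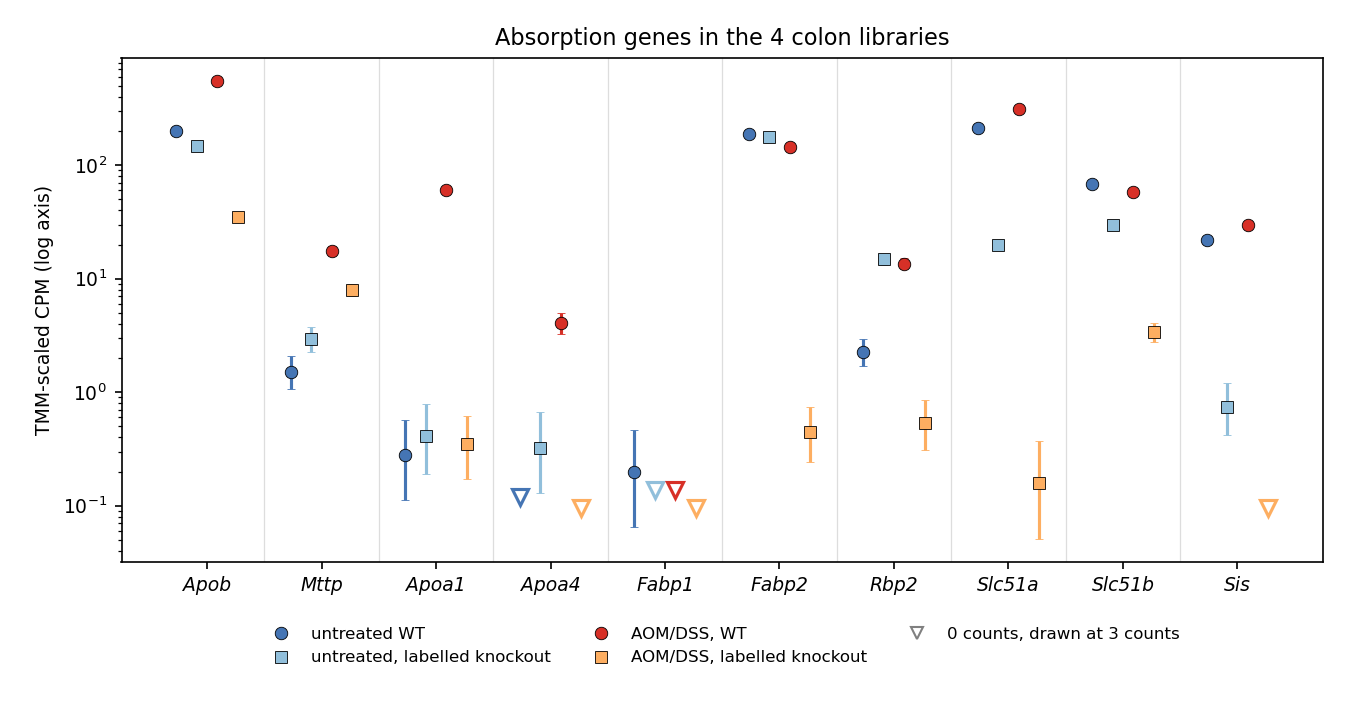
Level of each gene in the 4 libraries as TMM-scaled CPM on a log axis, 1 point per library, with bars for the exact 95% Poisson interval of the count. Open triangles stand for 0 counts and are drawn at the level of 3 counts. Fabp2 lies at 188, 178 and 144 CPM in 3 libraries and at 0.442 CPM in the AOM/DSS library labelled knockout.

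The 4 lipid assembly genes (Apob, Mttp, Apoa1 and Apoa4) were each highest in WT AOM/DSS. Apob (chromosome 12, 7977629 to 8016839, GRCm38) encodes the structural protein of chylomicrons. It had 5025, 3183, 11950 and 1104 counts, or 199, 147, 548 and 34.9 CPM. WT AOM/DSS was the highest library and the AOM/DSS library labelled knockout the lowest, and the 4 counting intervals did not overlap. With AOM/DSS, Apob was 2.75-fold higher in WT (95% counting interval 2.66 to 2.84) and 4.204-fold lower under the knockout label (3.93 to 4.51).

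Mttp (chromosome 3, 138089855 to 138143418) encodes the transfer protein that loads lipid onto apolipoprotein B. It had 38, 64, 380 and 254 counts, or 1.51, 2.95, 17.4 and 8.02 CPM. Both AOM/DSS libraries stood above both untreated libraries, which held for no other gene of the 10. The difference was 11.6-fold in WT (8.27 to 16.6) and 2.72-fold under the knockout label (2.06 to 3.64). Exons of Mttp overlap those of the predicted gene Gm43691, which was not analysed here.

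Apoa1 and Apoa4 are apolipoproteins that enterocytes put on lipoprotein particles. Apoa1 (chromosome 9, 46228630 to 46230469) had 7, 9, 1309 and 11 counts, or 0.278, 0.414, 60.0 and 0.347 CPM. It was high in WT AOM/DSS and near the floor of detection in the other 3 libraries, which did not differ beyond counting error in the pairs compared: the ratio was 1.19 (0.437 to 3.17) between the libraries labelled knockout and 1.49 (0.494 to 4.71) between the untreated libraries. In WT, Apoa1 was 216-fold higher after AOM/DSS (105 to 539). Apoa4 (chromosome 9, 46240844 to 46243458) had 0, 7, 88 and 0 counts. Its 4.04 CPM in WT AOM/DSS was at least 33.9-fold above untreated WT, taking 3 counts as the floor of the library at 0. Both genes lie in 1 cluster with Apoc3 and Apoa5, 2 further apolipoprotein genes, which were close to 0 throughout: Apoc3 had 0, 2, 5 and 0 counts and Apoa5 13, 0, 2 and 9. Exons of Apoa4 overlap the predicted genes Gm47528 and Gm10680, which were not analysed here. These apolipoproteins are also made by liver. Of 12 hepatocyte markers, 9, 8, 9 and 6 had a count, and the list summed to 40.5, 27.3, 161 and 154 CPM. In WT AOM/DSS the sum was mostly Hp, an acute-phase protein, at 138 CPM, followed by Cps1, a urea cycle enzyme, at 11.9 CPM and Ttr, a plasma carrier protein, at 11.1 CPM. Ttr stood at 0.913, 20.0, 11.1 and 6.66 CPM, and Alb, the main plasma protein, at 0.278, 0.967, 0.0917 and 29.1 CPM. The other 8 markers had at most 6 counts in WT AOM/DSS, with Fgb, Serpina1c and Mup3 at 0. Their part in the result was not tested.

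The intracellular carriers of fatty acids and retinol split by gene. Fabp2 (chromosome 3, 122895072 to 122899506), the intestinal fatty acid binding protein, had 4734, 3872, 3134 and 14 counts, or 188, 178, 144 and 0.442 CPM. The first 3 libraries lay close together and the last lay far below them. Fabp2 was 1.05-fold lower under the knockout label in untreated tissue (1.01 to 1.10) and 1.31-fold lower in WT AOM/DSS than in untreated WT (1.25 to 1.37). Under the knockout label it was 403-fold lower after AOM/DSS (240 to 738). Fabp1 (chromosome 6, 71199879 to 71205034), the carrier of liver and proximal small intestine, had 5, 0, 0 and 0 counts. At this depth a count of 0, taken to allow 3 counts, allows up to 0.138, 0.138 and 0.0947 CPM in the 3 libraries without a read, so Fabp1 was not detectable there and its ratios are not read further.

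Rbp2 (chromosome 9, 98490537 to 98509771) carries retinol in enterocytes and was the member whose highest level came from the untreated library labelled knockout. It had 57, 322, 297 and 17 counts, or 2.26, 14.8, 13.6 and 0.537 CPM. The untreated library labelled knockout and WT AOM/DSS had overlapping counting intervals (13.3 to 16.5 and 12.1 to 15.3 CPM), and untreated WT lay below both. Rbp2 was 6.55-fold higher under the knockout label in untreated tissue (4.93 to 8.85) and 25.4-fold lower after AOM/DSS (15.6 to 44.2).

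The bile acid exporter is made of subunits from separate genes, and both were lower under the knockout label. Slc51a (chromosome 16, 32475578 to 32487879) encodes the alpha subunit and had 5414, 435, 6785 and 5 counts, or 215, 20.0, 311 and 0.158 CPM. Slc51b (chromosome 9, 65412753 to 65422773) encodes the beta subunit and had 1735, 642, 1269 and 107 counts, or 68.8, 29.6, 58.2 and 3.38 CPM. For both subunits the WT libraries were the higher ones and the AOM/DSS library labelled knockout was the lowest, but the alpha subunit spanned a far wider range. In untreated tissue Slc51a was 10.7-fold lower under the knockout label (9.73 to 11.9) and Slc51b 2.33-fold lower (2.13 to 2.55). Between the AOM/DSS libraries the same ratios were 1971-fold (844 to 6073, with 5 counts in the lower library) and 17.2-fold (14.1 to 21.2). Exons of Slc51a overlap those of Pcyt1a, which had 2609, 1425, 1980 and 1858 counts, and exons of Slc51b overlap those of Rasl12, which had 155, 141, 150 and 147. The handling of strand is not given in the sources used here, so reads from shared exons cannot be told apart.

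Sis (chromosome 3, 72888557 to 72967863), the sucrase-isomaltase of the brush border, followed the genotype label in these 4 libraries. It had 554, 16, 648 and 0 counts, or 21.98, 0.737, 29.7 and 0 CPM, where 0 counts allow up to 0.0947 CPM. Both WT libraries were high and both libraries labelled knockout were low. Sis was 29.8-fold lower under the label in untreated tissue (18.2 to 52.6) and at least 314-fold lower after AOM/DSS. With AOM/DSS it was 1.35-fold higher in WT (1.20 to 1.52) and at least 7.78-fold lower under the knockout label, from 16 counts to 0.

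Set against length, as CPM per kilobase of merged exons, Fabp2 was the highest of the 10 in the first 3 libraries at 195, 185 and 149 CPM per kilobase. In untreated WT it was followed by Slc51b at 97.1 and Slc51a at 82.0 CPM per kilobase, and Apob stood at 14.3. In WT AOM/DSS the order below Fabp2 was Slc51a (119 CPM per kilobase), Slc51b (82.1), Apoa1 (58.0) and Apob (39.3). The AOM/DSS library labelled knockout had another order, with Slc51b at 4.76, Apob at 2.50 and Mttp at 1.82 CPM per kilobase, and each of the other 7 at 0.659 or less. By counts Apob made 28.6%, 37.2%, 46.2% and 73.0% of the reads of the 10 genes.

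The comparison of AOM/DSS with untreated tissue in WT sets 1 library of day 100 against 1 of day 0. A size rule of at least 2-fold on the log2(CPM + 1) scale, and 50 or more counts in whichever library was higher, was passed by 5 of 10 genes as higher (Apoa1, Apoa4, Apob, Mttp and Rbp2) and by 0 as lower. Over all 15356 genes with that many counts, 4.08% were higher and 3.88% lower. The genes past the rule were the lipoprotein genes and the retinol carrier, while Fabp2, Slc51a, Slc51b and Sis differed by less than 1.5-fold and Fabp1 had too few counts. Leaving out Fabp1, with its 5 counts, the median log2 ratio was 1.45 against 0.01 over all genes. Because the members were chosen on these contrasts, the shares are read no further. In bulk tissue, fewer cells of a type and less RNA per cell cannot be told apart.

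Within the libraries labelled knockout most of the genes that could pass the rule were lower. Lower by the size rule were 5 of 10 (Apob, Fabp2, Rbp2, Slc51a and Slc51b) and higher was 1 (Mttp), beside 15.9% lower and 14.1% higher over 15900 genes. Apoa1, Apoa4 and Sis had under 50 counts in both libraries of this pair and could not pass. Set beside the WT pair, 5 of 10 genes (Apoa4, Apob, Rbp2, Sis and Slc51a) were higher in WT and lower under the knockout label with both counting intervals excluding a ratio of 1, where 23.6% of 16383 genes had opposite responses of either kind and 13.3% had them in this direction. The median log2 ratio of the 9 genes was -2.04 on the log2(CPM + 1) scale, and -2.96 on the log2 scale of CPM ratios with counts of 0 set to 3. The difference between the responses, labelled knockout minus WT, was -1 or less for each of the 9 genes that reached 50 counts somewhere (all but Fabp1), from -1.22 for Sis to -6.57 for Fabp2, with a median of -3.50. Over 16383 genes 16.3% had a difference that low. Sis was near the limit and passed it no longer per pan-epithelial sum (-0.88, 8 genes) or with a pseudocount of 5 CPM (-0.56), where Apoa4 also missed it (7 genes). These differences of log2 ratios have no error of their own, since no library is repeated.

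The genotype label was compared within each treatment. In untreated tissue Rbp2 was higher and Sis, Slc51a and Slc51b were lower by the size rule, 1 and 3 of 10, beside 4.46% higher and 3.37% lower over 15352 genes. Apob (1.36-fold lower, 1.30 to 1.42), Mttp (1.95-fold higher, 1.29 to 3.001) and Fabp2 did not pass it. After AOM/DSS, 9 of 10 were lower and 0 higher, beside 12.4% lower and 11.9% higher over 15779 genes. The smallest of these differences was that of Mttp at 2.17-fold (1.85 to 2.56), at the edge of the rule: with DESeq2 size factors, library totals or the pan-epithelial sum as scale it no longer passed, at log2 ratios of -0.98, -0.78 and -0.66. The median log2 ratio of the 9 genes was -0.08 in untreated tissue and -3.94 after AOM/DSS (-5.41 with counts of 0 set to 3).

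The balance of the background depended on the scale. Of all genes past the rule, the share that was higher was 51.3%, 47.0%, 57.0% and 48.9% in the WT pair, the pair labelled knockout, the untreated pair and the AOM/DSS pair. By library totals it was 64.1% in the pair labelled knockout and 64.2% in the AOM/DSS pair. Per pan-epithelial sum it was 28%, 67.9%, 33.9% and 71.4%.

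**Figure D2:**
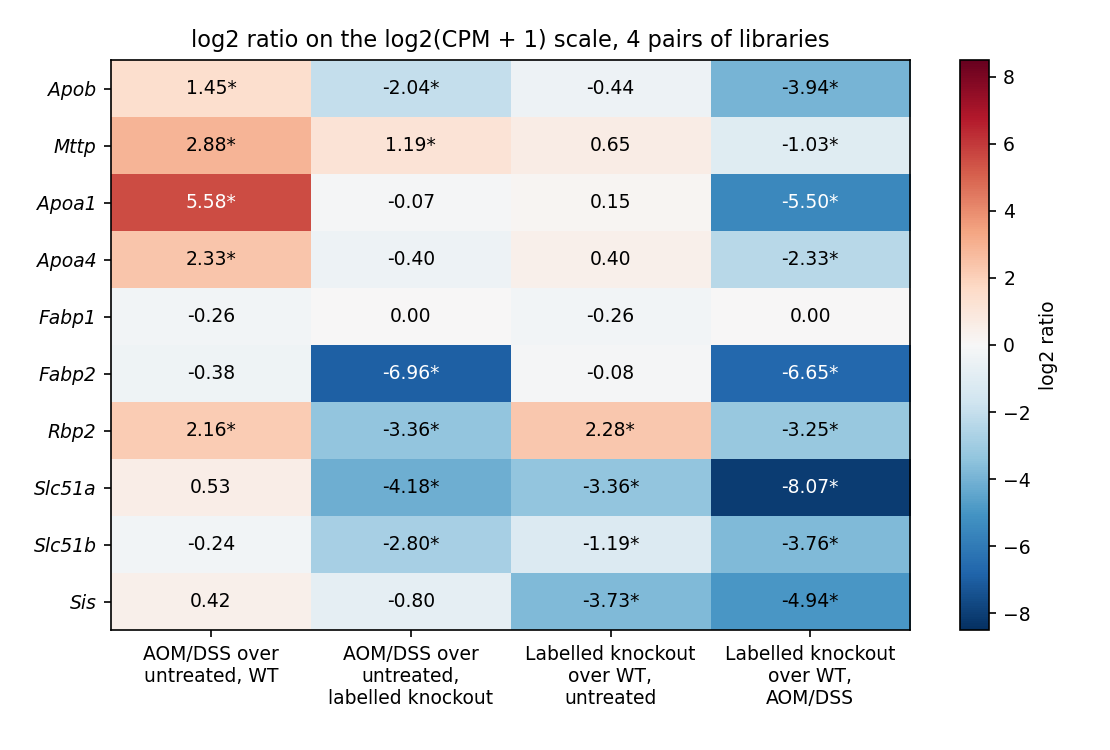
Log2 ratio of each gene in the 4 pairs of libraries, on the log2(CPM + 1) scale, with red for higher and blue for lower in the library named first and an asterisk where the size rule was passed. Fabp1 has no passing value, and the AOM/DSS pair on the right holds 9 lower values down to -8.07 for Slc51a.

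Levels were also set against epithelial genes of the same library. The pan-epithelial sum pools genes that went apart under the knockout label, as given above. Per summed CPM of the 11 pan-epithelial genes, Fabp2 was 245-fold, Slc51a 1487-fold, Apoa1 130-fold, Rbp2 19.2-fold, Slc51b 13-fold and Apob 11.9-fold lower in the AOM/DSS library labelled knockout than in WT AOM/DSS. The sum of 10 genes listed as brush border structure markers was itself 2.94-fold lower in that library (1964 against 5776 CPM). Per brush border sum, Fabp2 was still 111-fold, Slc51a 670-fold, Apoa1 58.8-fold, Rbp2 8.63-fold, Slc51b 5.86-fold and Apob 5.35-fold lower. Mttp turned direction, from 1.64-fold lower per pan-epithelial sum to 1.35-fold higher per brush border sum. Between the untreated libraries the brush border sum differed by 1.11-fold, and Sis, Slc51a and Slc51b were 33.2-fold, 11.95-fold and 2.60-fold lower per that sum under the knockout label.

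**Figure D3:**
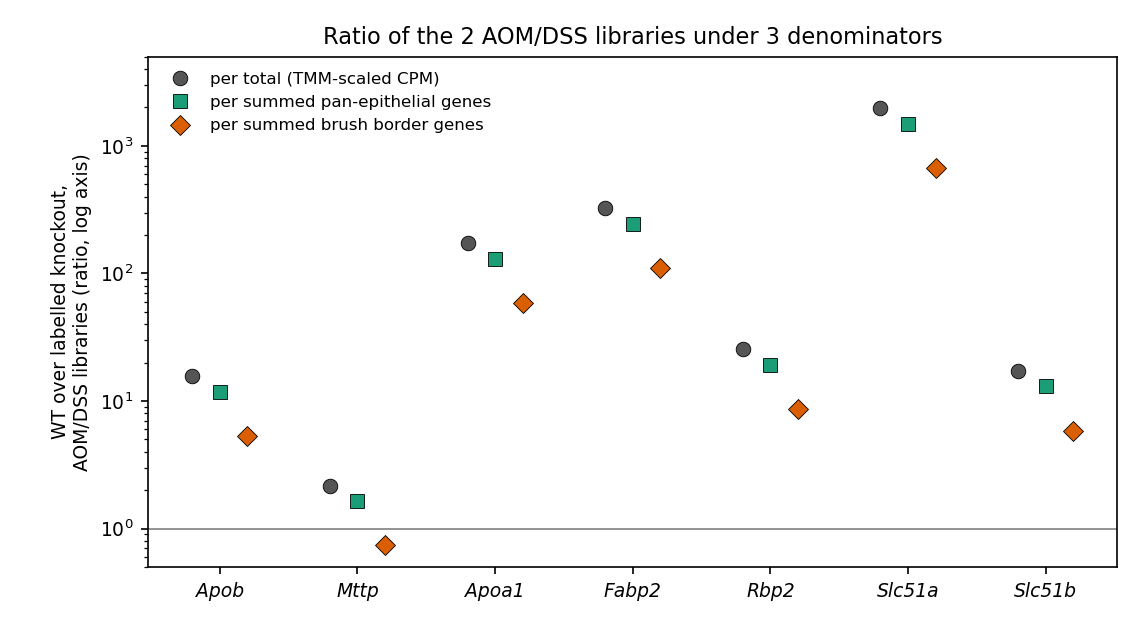
Ratio of WT AOM/DSS over the AOM/DSS library labelled knockout on a log axis for the 7 genes with counts in both, per total (CPM), per summed pan-epithelial genes and per summed brush border genes, 1 point each with no error. Points above 1 are higher in WT; Mttp crosses 1 with the brush border sum.

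Other genes of the same pathways were taken from fixed lists, described by counts and medians. For every list, the share of all genes past the same size rule is to be set beside the counts. That share was 4.08% higher and 3.88% lower in the WT pair, and 14.1% and 15.9% in the pair labelled knockout. In the untreated pair it was 4.46% and 3.37%, and in the AOM/DSS pair 11.9% and 12.4%. Of 29 other lipid absorption genes, 27 reached 50 counts over the libraries. In the WT pair 7 were higher by the size rule and 2 lower (median of log2 ratios 0.75), and in the pair labelled knockout 5 were higher and 5 lower (0.03). After AOM/DSS, 9 were lower and 4 higher under the knockout label (-0.27), and in the untreated pair 2 were lower and 6 higher (-0.004). Npc1l1, the transporter that takes up cholesterol, stood at 1.59, 0.598, 12.2 and 0.126 CPM, the same order of libraries as Apob. Abca1, a cholesterol exporter, was highest in the AOM/DSS library labelled knockout at 147 CPM against 31.4 to 62.2 CPM elsewhere. Clps, the cofactor of pancreatic lipase, had 6.94, 15.2, 0.825 and 6.47 CPM. Tm6sf2, a protein of lipoprotein secretion, had 4.40, 13.5, 8.57 and 2.37 CPM. Among genes picked after their values were seen, Mogat2 and Dgat2, enzymes that make triglyceride from absorbed lipid, were 3.76-fold (3.08 to 4.61) and 3.25-fold (3.07 to 3.43) higher in WT AOM/DSS than in untreated WT.

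Of 10 other bile acid genes, 6 were measured at that depth. In the pair labelled knockout 3 were higher and 3 lower, and the median was 0.08, or -0.11 on the scale with counts of 0 set to 3. In the AOM/DSS pair 2 were higher and 4 lower (median -1.82), in the WT pair 1 higher and 0 lower (0.07), and in the untreated pair 0 higher and 1 lower (-0.44). Nr1h4, the bile acid receptor FXR, stood at 113, 71.6, 168 and 21.8 CPM. Fabp6, the ileal bile acid carrier, stood at 3.97, 2.35, 17.9 and 0.379 CPM. The exporters went apart: Abcc3 was lowest and Abcc2 highest in the AOM/DSS library labelled knockout, at 97.6 against 327 to 509 CPM and 68.5 against 3.03 to 4.01 CPM. Slc10a2, the apical uptake transporter for bile acids and picked after its values were seen, had 64.2, 5.11, 60.9 and 15.5 CPM, so that it too was lower under the knockout label in both treatments (12.6-fold, 10.4 to 15.4, and 3.93-fold, 3.54 to 4.37).

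Sugar genes other than Sis differed less in the untreated pair. Of 14 listed, 9 were measured, and in the untreated pair 0 passed the size rule in either direction. In the WT pair 1 was higher and 0 lower, in the pair labelled knockout 0 and 3, and in the AOM/DSS pair 0 and 4. Mgam, the maltase-glucoamylase that works beside Sis and picked after its values were seen, stood at 544, 494, 618 and 355 CPM, a 1.10-fold difference between the untreated libraries (1.08 to 1.13) where Sis differed 29.8-fold. Khk, the fructose kinase, stood at 11.5, 14.8, 12.9 and 4.04 CPM and the fructose transporter Slc2a5 at 5.71, 4.74, 9.49 and 0.758 CPM. Treh, the trehalase, had 3, 15, 63 and 17 counts.

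Vitamin A genes moved in both directions. Of 12 measured among 14, 2 were higher and 4 lower in the WT pair, and 3 higher and 5 lower in the pair labelled knockout. In the untreated pair 1 was higher and 4 lower, and in the AOM/DSS pair 2 were higher and 3 lower. Stra6, a retinol transporter, stood at 0.516, 6.77, 4.86 and 323 CPM, and was thus highest where Rbp2 was lowest. Aldh1a3 (17.97, 4.603, 12.01 and 132 CPM) and Aldh1a1 (275, 86.5, 250 and 6.09 CPM), enzymes that make retinoic acid, had opposite orders in the AOM/DSS pair. Cyp26b1, which degrades retinoic acid, was lower after AOM/DSS under both labels, 10.6-fold in WT (7.52 to 15.3) and 7.08-fold under the knockout label (5.36 to 9.48).

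Brush border peptide digestion genes were described in the same way. Of 14 measured, 5 were higher and 0 lower in the WT pair (median 0.65), and 0 were higher and 9 lower in the pair labelled knockout (-2.44). In the untreated pair 2 were higher and 0 lower (0.26), and in the AOM/DSS pair 1 was higher and 10 lower (-2.85). Mep1a, a meprin protease, stood at 372, 405, 466 and 5.05 CPM, and Alpi, the intestinal alkaline phosphatase, at 24.2, 32.1, 89.6 and 0.537 CPM. Naaladl1, a peptidase, stood at 103, 57.0, 114 and 1.80 CPM. The peptide transporter Slc15a1 was high in the untreated library labelled knockout alone, at 96.3 CPM against 2.34 to 4.31 CPM. Of 14 colonocyte markers, 12 were lower and 0 higher in the pair labelled knockout (median -3.70), so the low values of the members there came with low values of genes that mark colon epithelium. Their part in the result was not tested.

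Among 22 regulators of absorptive genes, 21 were measured. In the WT pair 1 was higher and 0 lower (median 0.05), and in the pair labelled knockout 2 were higher and 12 lower (-1.16). In the untreated pair 2 were higher and 1 lower (0.03), and in the AOM/DSS pair 1 was higher and 11 lower (-1.24). The 1 higher gene in the WT pair was Creb3l3, a membrane-bound transcription factor of liver and intestine, at 2.18, 1.29, 33.3 and 2.24 CPM. Cdx2, an intestinal identity factor, stood at 258, 143, 279 and 16.9 CPM, and Nr5a2 at 59.0, 59.5, 51.5 and 2.71 CPM. Onecut2, a transcription factor, had 3, 0, 2 and 304 counts. Hnf4a, a general regulator of enterocyte genes picked after its values were seen, differed by less in the AOM/DSS pair, at 397 CPM under the knockout label against 940 CPM in WT. The sum of 8 Paneth cell markers, products of a small intestinal cell type, was highest where most members were lowest, at 21.98, 161, 43.1 and 2910 CPM. In the pair labelled knockout 7 of them were higher by the size rule and 1, Ang4, was lower, from 127 to 61.8 CPM.

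**Figure D4:**
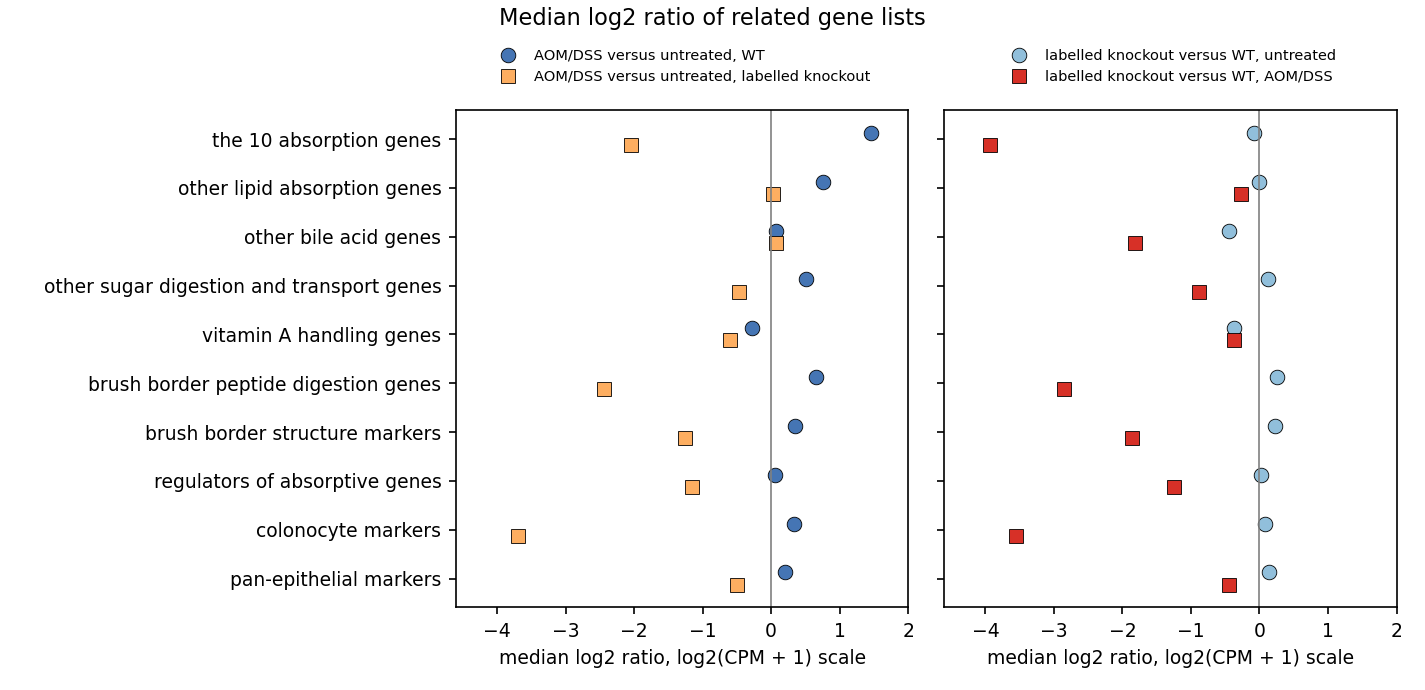
Each point is the median over 1 list of log2 ratios, from log2(CPM + 1). The left panel compares AOM/DSS with untreated tissue and the right panel the labelled knockout with WT. Only genes that reached 50 counts across the libraries enter. The list of the 10 absorption genes, of which 9 enter, lies at 1.45 and -2.04 on the left, and pan-epithelial markers stay at 0.21 and -0.50.

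Genes with the most similar pattern were found by the root mean square distance of log2(CPM + 1) values, centred on each gene's mean, over the 4 libraries and 13537 candidate genes. With 4 points this is a description. The added 1 CPM shrinks differences of low genes, so a small distance does not mean equal ratios. Apoa4, for example, stood at 0, 0.322, 4.04 and 0 CPM, and Clca6 at 106, 122, 539 and 118 CPM. Nearest to Apoa1 were Chrdl2 (distance 0.747), Creb3l3 (0.867) and Ms4a10 (1.02), each highest in WT AOM/DSS. Nearest to Apob were Gfap (0.123), Fam162a (0.271) and Enpep (0.277). Apoa4 had Cpxm1 (0.125), Clca6 (0.127) and Reg4 (0.172), and Mttp had Ptgs2 (0.195), Chil1 (0.215) and Bmp8b (0.234). The 3 nearest to Rbp2 were Fcer2a (0.356), Spib and Cd79b (both 0.364). Cd79b, part of the B cell receptor, stood at 2.02, 20.9, 14.8 and 1.77 CPM, beside 2.26, 14.8, 13.6 and 0.537 CPM for Rbp2. Among 8 immune markers, Cd79a stood at 2.975, 23.8, 26.4 and 4.92 CPM, but Jchain at 330, 499, 286 and 159 CPM. The sum of the 8 was highest where Rbp2 was lowest, at 596, 873, 772 and 1214 CPM. Nearest to Slc51a were Car1 (0.487), Cyp2c65 (0.498) and Abca12 (0.591). Car1, a carbonic anhydrase, stood at 7654, 857, 5313 and 28.4 CPM. Slc51b had Nags (0.0637), B4galnt2 (0.0818) and Mgat4c (0.0821). Sis had Cyp2c66 (0.498) and Prap1 (0.565). Fabp2 had Mettl7b (0.360), Hsd3b3 (0.402) and Mep1a (0.427). For Fabp1, with 5 counts in all, no such genes are given. Among the members the closest pair was Apob and Slc51b (0.672), followed by Apoa4 and Mttp (0.711).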

How the data were processed

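The authors deposited raw read counts per gene symbol for 4 colon libraries (Ion Proton RNA-seq chemistry, as the labels' protocols state), with genome build GRCm38 (mm10), per the submitters' processing notes. Which aligner, counter, annotation and strand setting made them is not given in the sources used here. Of 44788 rows, 27 carry a date in place of a symbol. Columns carry the sample titles, and 0 columns belong to other samples.

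TMM factors from edgeR 4.0.16 under R 4.3.3 (0.992, 0.931, 0.947 and 1.14) turned the counts into CPM. Log2 ratios used log2(CPM + 1), which understates differences of low genes. Printed folds are CPM ratios without the pseudocount, with exact 95% Clopper-Pearson intervals given the summed count of a pair; levels have exact Poisson intervals. Molecular identifiers are not mentioned and reads may share a molecule, so both cover counting error only. A library at 0 counts was set to a floor of 3 counts. No p-value was computed, since each group has 1 library. The ratio and interval code was tested on simulated data.

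Members and gene lists were chosen with earlier results of these data known. Named genes were the 10 members, Card9, up to 4 genes per list with the largest absolute log2 ratio in either AOM/DSS pair, markers given with their list, and the 3 nearest patterns per member; exceptions are marked, and some genes under this rule are not reported here. Older symbols matched 4 listed genes. All 10 members matched RefSeq positions and promoters. Merged exon lengths came from the GENCODE M21 basic annotation on the same build, in place of RefSeq lengths, and exons near promoters from its full set. A planned comparison of protein sequences was not run. Alternatives were DESeq2 (1.42.0) size factors, upper-quartile factors, library totals, the pan-epithelial sum, leaving out genes above 1% of a library, other pseudocounts and count minimums, thinning, and, added after seeing the data, TMM factors without the AOM/DSS library labelled knockout.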

Additional observations from a re-analysis of the deposited data

Results flagged for a closer look

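Responses to AOM/DSS of opposite direction under the 2 genotype labels, with both counting intervals excluding a ratio of 1, were found for 5 of the 10 genes, each higher in WT and lower under the knockout label. Over 16383 genes that reached 50 counts in a library, 23.6% had such opposite responses, and 13.3% had them in that direction. As the 5 genes were chosen on these contrasts, the shares are read no further. With 1 library per group this difference was not tested. Subtracting the WT log2 ratio from that under the knockout label gave -5.53 for Rbp2, -4.72 for Slc51a, -3.50 for Apob, -2.74 for Apoa4 and -1.22 for Sis. Rbp2 was 6.02-fold higher in WT (4.52 to 8.14) and 27.6-fold lower under the knockout label (17.0 to 48.0). Slc51a was 1.45-fold higher in WT (1.40 to 1.501) and 127-fold lower (54.0 to 393), with 5 counts in the lower library. Apob was 2.75-fold higher and 4.204-fold lower. For Apoa4 and Sis the lower side rests on 7 and 16 counts in the untreated library labelled knockout against 0 after AOM/DSS, at least 3.40-fold and at least 7.78-fold lower.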

How the results depend on the processing

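The counts of members higher or lower in each pair, and of members with a difference of responses of -1 or less, were within 1.5 times of the reported count in 91 of 92 recomputations over 11 alternatives. The exception was a pseudocount of 5 CPM in the pair labelled knockout, where 0 members were higher in place of 1, since the log2 ratio of Mttp fell to 0.71; the larger pseudocount shrinks ratios of low genes by construction. Under these alternatives no member past the size rule changed sign; Mttp did per brush border sum, as given above. Mttp no longer passed in the AOM/DSS pair under 4 alternatives (log2 ratios -0.98, -0.78, -0.66 and -0.78), and Apoa4, with 88 counts at most, no longer passed with a pseudocount of 5 CPM (0.85 and -0.85) or at least 200 counts. The count of members with a difference of responses of -1 or less ranged from 9 down to 8 per pan-epithelial sum, without Sis, and 7 with a pseudocount of 5 CPM, without Sis and Apoa4. Library totals moved the median log2 ratio of all genes to 0.30 in the pair labelled knockout and 0.28 in the AOM/DSS pair, from 0.03 in both, and the pan-epithelial sum moved it to 0.36 and 0.40 there and to -0.25 and -0.24 in the WT and untreated pairs. Factors without the AOM/DSS library labelled knockout left every count of members in the WT and untreated pairs as reported. No paired analysis was possible because each group has 1 library. Depth limits Fabp1 in all libraries, and Apoa4 and Sis where they had 0 counts.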

Other observations

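The untreated library labelled knockout held a few genes of the lists described here at levels not seen in untreated WT, beside its low Sis and Slc51a. These genes were picked after their values were seen, and no difference was tested. Slc15a1, the peptide transporter, was 41.2-fold higher there than in untreated WT (31.8 to 54.3). Cela1, an elastase of the pancreatic marker list, had 205 CPM there against 25.9 CPM in untreated WT. The 9 other pancreatic genes of that list had at most 41 counts there, and each had more than in untreated WT. Cela2a, for example, had 41 counts against 4, Pnlip 33 against 0 and Cpb1 12 against 6. In untreated WT and the untreated library labelled knockout, Ang4, an antimicrobial product of Paneth and goblet cells, had 4.84 and 127 CPM, and Foxa2, a transcription factor of gut endoderm, 5.99 and 32.1 CPM. Among colonocyte markers values went both ways in untreated tissue: 5 were at least 2-fold higher, among them Aqp8 (37.0 and 448 CPM) and Car4 (209 and 1103 CPM), and 3 were lower, among them Car1.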
